A study of Mus musculus with 8 samples.

Results

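The guanylate-binding proteins and immunity-related GTPases are described here through 10 genes: Gbp2, Gbp3, Gbp4, Gbp5, Gbp6, Gbp7, Gbp9, Irgm1, Igtp and Iigp1. They were found by gene name among the 54532 genes of the deposited tables, and all 10 had a row and passed the filter on low counts, which kept 17004 genes. RNA was measured by sequencing in mouse retina, in 4 libraries with the label sIVs and 4 with the label PBS, with replicates numbered 1, 3, 4 and 5 in each group. The abbreviation sIVs stands for small intracellular vesicles in the series title, which concerns protection of the retina, and PBS (phosphate-buffered saline) marks the control group. The labels name no strain, genotype, age, dose, route, time or injury for either group. They call the libraries biosamples without saying whether these came from separate animals, so p-values reflect only how these samples spread, and that spread may be technical.

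Both are families of GTPases that cells make in response to interferons, above all interferon gamma. Guanylate-binding proteins assemble on the membranes of bacteria and of vacuoles that hold parasites, and help to open them and to start inflammasome signalling. Immunity-related GTPases act beside them: the regulators Irgm1 and Igtp (also called Irgm3) sit on the cell's own membranes and keep effectors such as Iigp1 (also called Irga6) inactive until a vacuole is found. In retina, glia, vessels and immune cells are among the cells that respond to interferon. Interferon-activated transcription factors bind their promoters at gamma-activated sites and at interferon-stimulated response elements.

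The promoters of the members are shown first because they carry the letters through which interferon is known to reach these genes. The RefSeq table (GRCm38.p6, the same assembly as mm10) held promoters of 6 members: Gbp2, Gbp3, Gbp5, Gbp7, Irgm1 and Igtp. Each entry runs from 250 bases before to 50 bases after the gene's start, and 2 motifs were searched on both strands. They were GAAA and GAAA with any 2 bases between them, for the interferon-stimulated response element, and TTCNNNGAA, for the gamma-activated site, which reads the same on both strands. All 6 members held the first motif in at least 1 entry, against 3.44% of all 32851 promoters of that length. The second motif stood in 3 of the 6 (Gbp5, Gbp7 and Igtp), against 8.3% of all promoters, and 0.454% of all promoters held both. The stretches around the response element follow 5′ to 3′ on the gene's strand, with matches to either motif in capitals.
Gbp2, chr3:142620569-142620638, plus strand: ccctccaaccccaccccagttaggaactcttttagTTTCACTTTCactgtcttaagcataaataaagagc
Gbp3, chr3:142559964-142560039, plus strand: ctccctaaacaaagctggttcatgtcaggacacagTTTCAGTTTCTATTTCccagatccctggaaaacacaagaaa
Gbp5, chr3:142496734-142496803, plus strand: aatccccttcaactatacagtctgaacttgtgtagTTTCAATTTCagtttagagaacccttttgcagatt
Gbp7, chr3:142530248-142530317, plus strand: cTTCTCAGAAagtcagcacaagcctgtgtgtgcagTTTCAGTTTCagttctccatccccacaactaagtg
Irgm1, chr11:48871421-48871485, minus strand: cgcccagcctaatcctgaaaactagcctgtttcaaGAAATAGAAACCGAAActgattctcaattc
Igtp, chr11:58199487-58199555, plus strand: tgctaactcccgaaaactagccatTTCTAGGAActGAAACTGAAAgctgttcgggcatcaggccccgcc

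The element reads on the opposite strand (TTTC repeated) in the 4 Gbp genes and on the gene's own strand (GAAA repeated) in Irgm1 and Igtp. In Gbp3 and Irgm1, 2 copies overlap by 4 bases. In Igtp the gamma-activated site ends 2 bases before the response element, and the same spacing with the same order was found in the promoters of the related genes Irgm2, Tgtp1, Tgtp2 and Gm12185. The RefSeq starts of Gbp2, Gbp5, Irgm1 and the Gbp3 entry shown lie inside the bounds that the deposited table gives for these genes. A second Gbp3 entry, for a start farther into the gene, held neither motif. The whole 250 bases before the start of Igtp and of Gbp7 show how few matches there are besides these, with 1 site of each kind in Igtp and 2 gamma-activated sites and 1 response element in Gbp7.
Igtp, chr11:58199306-58199555, plus strand: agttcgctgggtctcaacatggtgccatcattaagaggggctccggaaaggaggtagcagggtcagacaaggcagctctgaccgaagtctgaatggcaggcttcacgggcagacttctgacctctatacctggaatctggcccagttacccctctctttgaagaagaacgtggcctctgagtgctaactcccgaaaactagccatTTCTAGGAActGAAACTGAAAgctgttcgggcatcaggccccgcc
Gbp7, chr3:142530086-142530335, plus strand: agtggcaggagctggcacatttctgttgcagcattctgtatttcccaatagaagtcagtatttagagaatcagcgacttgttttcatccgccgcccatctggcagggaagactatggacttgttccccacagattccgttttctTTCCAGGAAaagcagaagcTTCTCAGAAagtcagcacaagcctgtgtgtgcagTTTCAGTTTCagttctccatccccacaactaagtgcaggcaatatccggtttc

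Depth was 13803958 to 16622259 counts per library. All 17 listed photoreceptor and neuron markers passed the filter, so the libraries hold retina as labelled. Several libraries stood apart. Replicate 1 of both groups had the highest summed level of those markers, at 63500 (PBS) and 64800 (sIVs) CPM (counts scaled to the normalized library size), against 34200 to 52900 CPM in the other 6. The sIVs replicate 4 held 459 CPM of 12 pigment epithelium markers, against 12.6 to 75.2 CPM in the other 7 libraries, and it was the lowest library for 35.4% of all genes tested. The group differences, the spread of the members, their order per length and the medians of most gene lists are also given without some or all of these libraries.

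All 10 members were transcribed in every library, with means over the 8 libraries of 0.326 to 7.32 FPKM. Levels of different genes are compared per length, in FPKM (fragments scaled by the listed gene length and a library total). Gbp3 came first, at 7.72 ± 4.75 FPKM (SD, n = 4) in PBS and 6.92 ± 5.42 FPKM (SD, n = 4) in sIVs retinas. Igtp followed at 6.19 ± 3.97 and 6.03 ± 3.84 FPKM, and Gbp2 at 5.86 ± 3.99 and 5.23 ± 2.46 FPKM (SD, n = 4 each). These neighbours could not be ordered: Gbp3 was above Igtp in 4 of 8 libraries, and Igtp above Gbp2 in 5 of 8. Gbp2 was above the next gene, Irgm1, in 8 of 8 libraries.

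Next in mean level were Irgm1 (3.28 ± 2.03 FPKM in PBS and 3.02 ± 2.17 FPKM in sIVs retinas), Gbp7 (3.54 ± 2.22 and 2.28 ± 0.818 FPKM) and Gbp9 (3.25 ± 1.92 and 2.07 ± 1.20 FPKM; SD, n = 4 each). Irgm1 was above Gbp7 in 3 of 8 libraries and Gbp7 above Gbp9 in 6 of 8. Gbp9 was above Gbp4 in 8 of 8 libraries, by 2.93 times in mean FPKM over all libraries. Then came Gbp4 (1.07 ± 0.619 and 0.739 ± 0.233 FPKM), Gbp5 (0.965 ± 0.587 and 0.63 ± 0.246 FPKM) and Iigp1 (0.945 ± 0.583 and 0.565 ± 0.279 FPKM), with the upper neighbour ahead in 5 of 8 libraries in both cases. Gbp6 was last in 8 of 8 libraries, at 0.36 ± 0.192 and 0.292 ± 0.114 FPKM. The listed length of Iigp1 is 3121 bases, against 5823 exonic bases in GENCODE M21, so its FPKM depends on the length used. The number of libraries in which it stood above or below a neighbour depends on it too. Only neighbours in the order of the means are compared here, and within a library genes farther apart could cross: in PBS replicate 1, Gbp7 (0.728 FPKM) was above Gbp2 (0.65 FPKM) and Gbp3 (0.615 FPKM). Without replicate 1 of both groups the order of the means was the same, from 9.47 FPKM for Gbp3 to 0.389 FPKM for Gbp6.

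**Figure D1:**
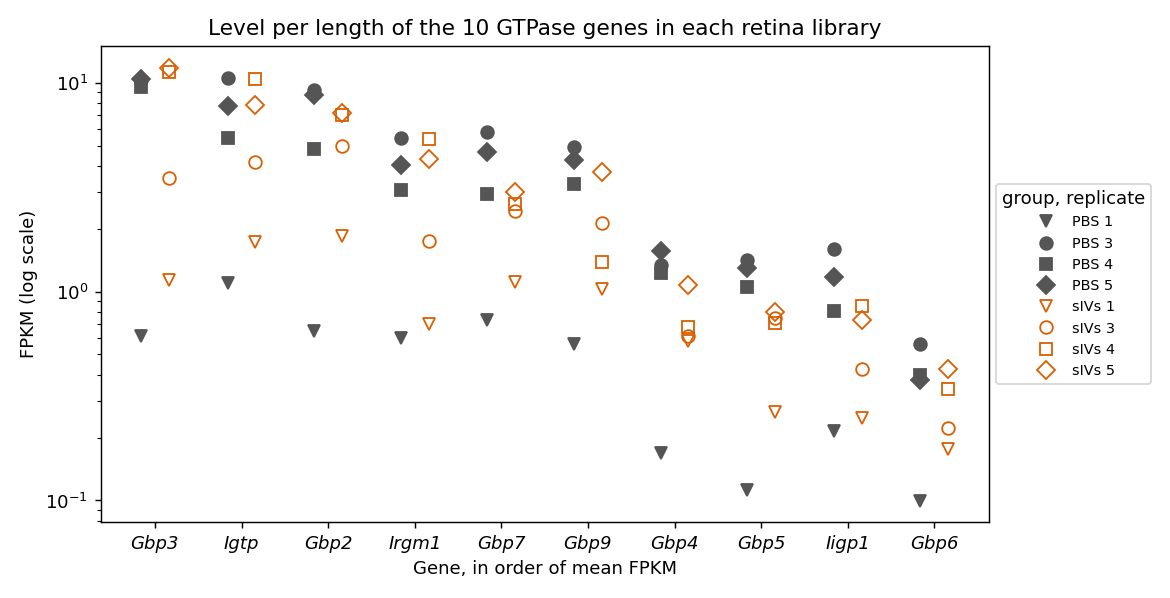
FPKM (log axis) of the 10 genes in order of their mean, 1 point per library, with PBS filled and sIVs open and a marker shape for each replicate number. Replicate 1 of each group (triangles) is the lowest point of its group for every gene, and the groups overlap for every gene.

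The 4 guanylate-binding protein members of chromosome 3 lie in 1 cluster on the plus strand: Gbp5 (142493978 to 142522344), Gbp7 (142530342 to 142550149), Gbp3 (142560026 to 142573209) and Gbp2 (142620602 to 142638008), with Gbp2b, which is no member, between Gbp3 and Gbp2. Gbp2, whose protein coats parasite vacuoles, stood at 1.66, 23.6, 12.4 and 22.3 CPM in PBS replicates 1, 3, 4 and 5, and at 4.73, 12.7, 18.1 and 18.4 CPM in sIVs replicates 1, 3, 4 and 5. Gbp3 stood at 2.04, 34.2, 31.6 and 34.6 CPM in the PBS libraries in the same order, and at 3.80, 11.6, 37.9 and 39.5 CPM in the sIVs libraries. For both genes replicate 1 was far below the rest of its group, and the groups overlapped. Gbp3 had the widest range of the members, 19.3-fold from the lowest to the highest library.

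Gbp5, whose protein promotes assembly of the NLRP3 inflammasome, stood at 0.756, 9.49, 7.12 and 8.67 CPM in PBS and at 1.79, 5.04, 4.85 and 5.43 CPM in sIVs libraries. Gbp7 stood at 4.16, 33.2, 16.7 and 26.6 CPM in PBS and at 6.38, 13.8, 15.1 and 17.3 CPM in sIVs libraries. In these 2 genes PBS replicate 1 was the lowest of all 8, while sIVs replicates 3, 4 and 5 lay below PBS replicates 3, 4 and 5 for Gbp5, and for Gbp7 sIVs replicate 5 alone was above the lowest of those 3. Their log2 differences, sIVs minus PBS, were -0.61 ± 0.61 for Gbp5 and -0.62 ± 0.53 for Gbp7 (SE; edgeR's quasi-likelihood test, adjusted p = 0.81 for each).

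The members of chromosome 5 lie on the minus strand: Gbp9 (105077630 to 105139539), Gbp4 (105115767 to 105139586) and Gbp6 (105270702 to 105293698). Gbp4 stood at 1.29, 10.2, 9.41 and 11.9 CPM in PBS and at 4.44, 4.69, 5.24 and 8.32 CPM in sIVs libraries. Gbp9 stood at 2.95, 26.0, 17.2 and 22.3 CPM in PBS and at 5.45, 11.1, 7.40 and 19.8 CPM in sIVs libraries. Gbp6 stood at 0.605, 3.41, 2.42 and 2.29 CPM in PBS and at 1.07, 1.35, 2.10 and 2.61 CPM in sIVs libraries. Gbp4 had 3 of the sIVs libraries close together, at 4.44 to 5.24 CPM, between the lowest PBS library and the other 3 PBS libraries, and Gbp9 had a low value in sIVs replicate 4, where Irgm1 and Igtp were highest. Reads of Gbp6 could not be assigned with certainty: 67.3% of its 75-base stretches also occur in transcripts of other genes, chiefly Gm43302 and Gbp10. For Gbp7 the share was 11.3%, chiefly with Gm43802, and for the other members it was at most 7.8% (Igtp).

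The immunity-related GTPases lie on chromosomes 11 and 18. Irgm1 (chromosome 11, 48861968 to 48871683, minus strand) stood at 3.55, 32.0, 18.1 and 23.7 CPM in PBS and at 4.16, 10.3, 32.0 and 25.6 CPM in sIVs libraries. Igtp (chromosome 11, 58199556 to 58207591, plus strand) stood at 2.27, 21.6, 11.2 and 15.9 CPM in PBS and at 3.58, 8.59, 21.6 and 16.2 CPM in sIVs libraries. These regulators gave the same picture, with replicate 1 low in both groups, sIVs replicate 3 next and sIVs replicate 4 level with the highest PBS library. The effector Iigp1 (chromosome 18, 60376029 to 60392627, plus strand) stood at 0.68, 5.03, 2.55 and 3.73 CPM in PBS and at 0.788, 1.35, 2.75 and 2.34 CPM in sIVs libraries. Its sIVs replicates 3, 4 and 5 overlapped with PBS replicate 4 but not with PBS replicates 3 and 5.

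Libraries of 1 group differed more than the groups did. PBS replicate 1 was the lowest of the 8 libraries for 10 of 10 members, against 18.5% of all genes tested. Replicate 1 of sIVs was second lowest for 10 of 10, and the 2 replicates 1 were the lowest pair for 12.4% of all genes tested. The third lowest was sIVs replicate 3 for 7 members, sIVs replicate 4 for Gbp5 and Gbp9, and PBS replicate 4 for Gbp2. PBS replicate 3 was highest for 6 members, sIVs replicate 4 for Irgm1 and Igtp, PBS replicate 5 for Gbp4 and sIVs replicate 5 for Gbp3. The highest library exceeded the lowest by 5.65-fold (Gbp6) to 19.3-fold (Gbp3), and by 1.9-fold to 3.73-fold over the 6 libraries without replicates 1. The SD of log2 CPM within groups had a median of 1.21 over the members, against 0.29 over all genes tested, and 10 of 10 members were among the 10% of genes with the largest such SD. Without replicate 1 of both groups these medians were 0.45 and 0.28, and without sIVs replicate 4 they were 1.27 and 0.19.

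On the scale of log2 CPM minus the mean of each gene, the mean of the members was -2.04 in PBS replicate 1 and -1.21 in sIVs replicate 1. It was 1.09, 0.46 and 0.85 in PBS replicates 3, 4 and 5, and -0.20, 0.43 and 0.62 in sIVs replicates 3, 4 and 5. Iigp1 and Gbp6 were less low in PBS replicate 1, at -1.39 and -1.37, and Gbp3 and Gbp2 lower, at -2.93 and -2.64. Gbp3 was the member farthest from that mean profile, with a root mean square distance of 0.60, and Gbp7 the nearest, with 0.23.

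**Figure D2:**
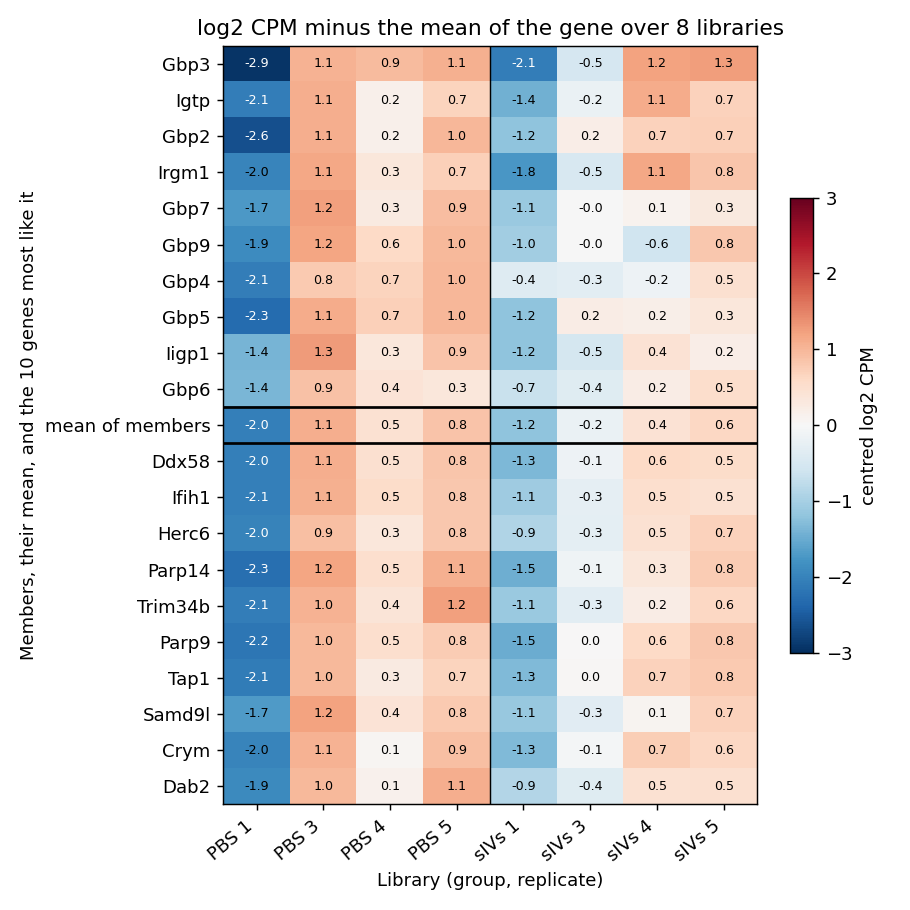
Each cell is the log2 CPM of a gene in 1 library minus its mean over the 8 libraries, for the 10 members (top), their mean (middle) and the 10 genes closest to that mean (bottom). The column of PBS replicate 1 is lowest, at -2.04 for the mean of the members, followed by sIVs replicate 1 at -1.21.

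Between sIVs and PBS retinas, no member passed the test. By edgeR's quasi-likelihood test 0 of the 10 members passed an adjusted threshold of 0.05, as did 0% of the 17004 genes tested, and 0 had an unadjusted p under 0.05, where 1.5% of the genes tested (255) did. DESeq2 and limma-voom with sample quality weights also called 0 genes (494 and 455 genes at an unadjusted p under 0.05), and limma on log2(FPKM + 1) and log2(FPKM + 0.1) called 0 (306 and 273 genes). The groups overlapped for 10 of 10 members, and did not overlap for 2.01% of the genes tested. All 10 log2 differences were below 0, as were 48.7% of those of all genes tested, with a median of -0.42 over the members and 0.01 over all genes tested. The members share the low and high libraries described above, so their 10 signs are not 10 separate observations.

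The differences ranged from -0.74 ± 0.57 (SE) for Iigp1 to -0.03 ± 0.65 (SE) for Igtp (edgeR adjusted p = 0.81 and 0.99). For Gbp9 and Gbp4 they were -0.65 ± 0.59 and -0.53 ± 0.53, for Gbp6 -0.30 ± 0.48, for Gbp2 -0.16 ± 0.66, for Gbp3 -0.15 ± 0.82 and for Irgm1 -0.11 ± 0.69 (SE). The 95% confidence interval was -2.01 to 0.54 for Iigp1 and -1.49 to 1.43 for Igtp, so changes of more than 2-fold in Igtp in either direction lie within the interval. The means behind the fits for Iigp1 were 3.00 ± 1.85 CPM (PBS) and 1.81 ± 0.898 CPM (sIVs), and 12.7 ± 8.17 and 12.5 ± 7.99 CPM for Igtp (SD, n = 4 each). The difference was within the SD of the PBS libraries for both genes.

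Single libraries set the size of the group difference. The median of the members was -0.75 without PBS replicate 1 and -0.64 without sIVs replicate 5, but -0.14 without PBS replicate 3 and -0.24 without sIVs replicate 1. The sign turned above 0 for 5 members without PBS replicate 3 and for 4 without sIVs replicate 1, 4 without PBS replicate 5 and 3 without sIVs replicate 3. Without sIVs replicate 4 the median was -0.50, and without PBS replicate 1 and sIVs replicate 4 together it was -0.86. Without both replicates 1, a setting chosen after seeing the data, the median was -0.57, and Gbp5 (-0.72 ± 0.20 SE), Gbp4 (-0.79 ± 0.26 SE) and Gbp7 (-0.73 ± 0.25 SE) had the smallest errors relative to their size (edgeR adjusted p = 0.714 for each). In those 6 libraries the 3 sIVs values lay below the 3 PBS values for Gbp4 and Gbp5, as they did for 4.59% of all genes tested, and 0% of genes passed. With limma-voom and sample quality weights the median over all 8 libraries was -0.87 and no member passed. On log2(FPKM + 1) and log2(FPKM + 0.1) it was -0.17 and -0.19.

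**Figure D3:**
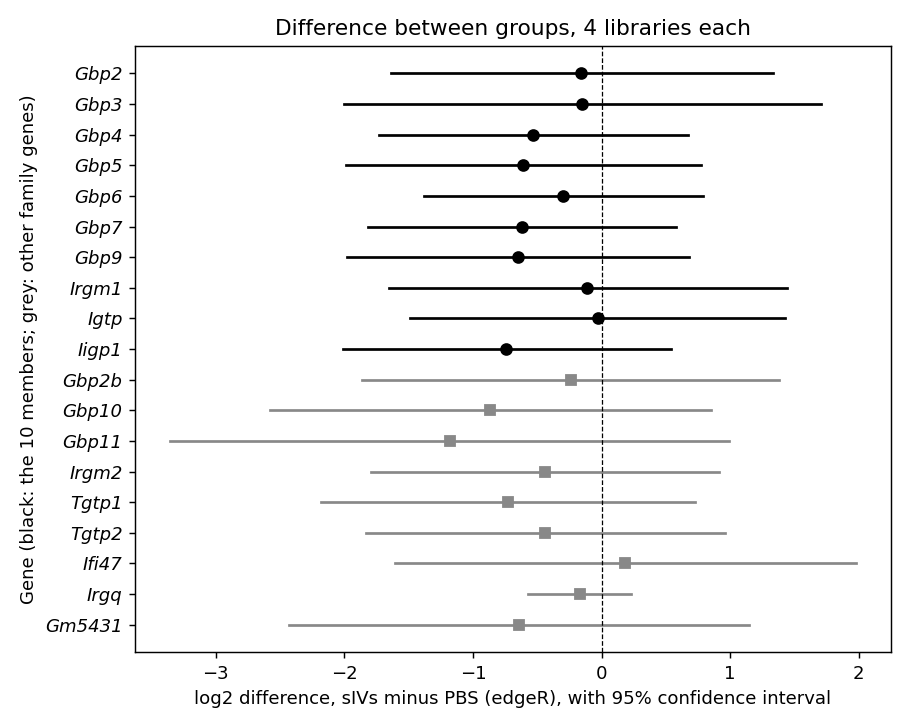
The log2 difference of sIVs minus PBS retinas (edgeR, 4 libraries each) with its 95% confidence interval, for the 10 members (black circles) and 9 other genes of the families (grey squares). Every interval spans 0.

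The members did not keep fixed proportions within a library. The FPKM of Irgm1 over that of Igtp lay between 0.404 and 0.566 in all 8 libraries, while each gene ranged over 9.01-fold (Irgm1) and 9.53-fold (Igtp) in CPM. The ratio of Igtp to Gbp9 was 1.66 to 2.13 in 7 libraries and 7.47 in sIVs replicate 4. That of Irgm1 to Gbp9 was 0.679 to 1.15 in 7 libraries and 3.85 in sIVs replicate 4. In this library Gbp9 was 1.04 (log2 CPM) below the mean profile of the members and Gbp4 0.59 below it, while Gbp3, Irgm1 and Igtp were 0.77, 0.72 and 0.67 above it. Gbp10, which lies between Gbp9 and Gbp6 and is no member, stood at 0.458 CPM there, against 0.287, 1.85 and 2.20 CPM in sIVs replicates 1, 3 and 5.

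The same library differed from the others by gene length over all genes. Its log2 CPM minus the mean of the other 7 libraries had a median of 0.49 over the 1240 genes of up to 1000 listed bases and 0.67 over 2212 genes of over 1000 and up to 2000 listed bases. It was 0.30 from there up to 4000 bases, -0.08 up to 6000 bases and -0.45 over the 4649 genes longer than that. The same medians lay between -0.14 and 0.11 in the other 7 libraries. Listed lengths are 2022 bases for Igtp, 3265 for Gbp3 and 5810 for Irgm1, and 5173 for Gbp9, 5614 for Gbp7 and 7494 for Gbp4. Irgm1, listed as longer than Gbp9, was high there and Gbp9 low. The part of length in the ratios was not tested.

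Gbp3 also varied against its neighbour Gbp7. The FPKM of Gbp3 over that of Gbp7 was 0.844 and 1.02 in replicate 1 of PBS and sIVs, and between 1.44 and 4.33 in the other 6 libraries. The ratio of Gbp3 to Gbp5 did not set replicates 1 apart in this way: it was 5.49 in PBS replicate 1 and 4.31 in sIVs replicate 1, but 4.67 in sIVs replicate 3 and 7.33 to 15.9 in the other 5 libraries. Gbp3 shares 2.06% of its 75-base stretches with Gbp7.

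**Figure D4:**
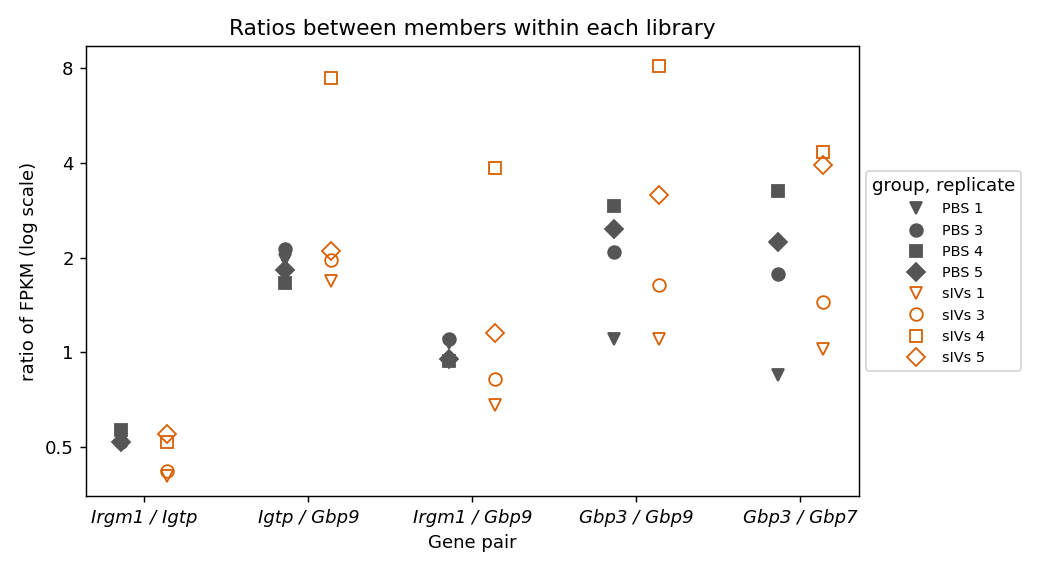
Ratios of FPKM between 2 members within each library (log axis), PBS filled and sIVs open, with a marker shape for each replicate number. The ratio of Irgm1 to Igtp stays between 0.404 and 0.566, while the ratios over Gbp9 stand apart in sIVs replicate 4 (open square).

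Most other genes of the 2 families were low in the same libraries: replicates 1 were the lowest pair for 6 of 9, and sIVs replicate 3 was lowest for Tgtp1 and Tgtp2. Of 19 listed, 18 had a row, 9 were tested, and 0 of 9 passed in either direction, with 8 log2 differences below 0 and a median of -0.44 (-0.74 without replicate 1 of both groups and -0.60 without sIVs replicate 4). Gbp2b, the gene next to Gbp2 that encodes the mouse Gbp1 protein, stood at 3.10, 40.4, 22.2 and 34.6 CPM in PBS and at 4.44, 17.5, 33.9 and 29.2 CPM in sIVs libraries (log2 difference -0.24 ± 0.72 SE; edgeR adjusted p = 0.917). Irgm2, the third regulator, ranged from 1.89 to 15.7 CPM (log2 difference -0.44 ± 0.60 SE), and 7.8% of the 75-base stretches of Igtp occur in its transcripts. Ifi47, an effector, stood at 0.0756 CPM in PBS replicate 1, from 1 count, and at 4.32 CPM in sIVs replicate 4 (log2 difference 0.18 ± 0.80 SE).

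The remaining interferon-induced genes of that list stood at most at 3.16 CPM. Gbp10 and Gbp11 had log2 differences of -0.87 ± 0.76 and -1.18 ± 0.97 (SE), Gbp11 with 0 counts in both replicates 1. Gm5431 had -0.64 ± 0.79, and the near-identical Tgtp1 and Tgtp2 had -0.73 ± 0.65 and -0.44 ± 0.62 (SE), at no more than 1.22 CPM in any library. Irgq, a relative not known as an interferon target, did not share the pattern: it stood at 65.0 to 78.2 CPM in PBS and 41.9 to 77.6 CPM in sIVs libraries, highest in PBS replicate 1 (log2 difference -0.17 ± 0.18 SE). Its lowest value was again in sIVs replicate 4.

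Genes that carry the interferon signal were read from gene lists. The 5 ligand genes of the list, Ifng, Ifnb1, Ifna4, Ifnl2 and Ifnl3, had 0 counts in all 8 libraries, which allows up to 0.174 to 0.227 CPM per library (3 counts; counting error only). The 3 receptor genes of smallest p ranged over 1.33-fold to 1.76-fold across libraries. Ifngr1 and Ifngr2, the receptor chains of interferon gamma, stood at 23.8 to 32.5 and 21.8 to 38.3 CPM (log2 differences 0.11 ± 0.11 and 0.24 ± 0.17 SE), and Ifnar1, a chain of the type I interferon receptor, at 61.0 to 81.4 CPM (-0.10 ± 0.11 SE). The other receptor genes tested were Ifnar2 (5.14 to 10.5 CPM) and Ifnlr1 (0 to 1.62 CPM). Like the members, Ifnar2, Ifnlr1 and Ifngr2 were lowest in PBS replicate 1 and next lowest in sIVs replicate 1. By edgeR 0 of the 5 tested passed. The SD of log2 CPM within groups was 0.12 to 0.43 for 4 of them and 1.26 for Ifnlr1, against a median of 1.21 for the members.

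Of 13 tested kinases and transcription factors, 0 passed in either direction, with 9 log2 differences below 0 and a median of -0.06 (-0.16 without replicate 1 of both groups and -0.07 without sIVs replicate 4). The 3 of smallest p were the kinase gene Jak2 (43.0 to 63.2 CPM, log2 difference -0.16 ± 0.12 SE), Stat2 (46.0 to 86.9 CPM, -0.25 ± 0.20 SE) and Nlrc5, a regulator of class I antigen presentation (0.302 to 9.49 CPM, -0.74 ± 0.74 SE). Irf1, a transcription factor gene named after its values were seen, had the low libraries of the members. It stood at 3.86, 18.1, 12.7 and 18.2 CPM in PBS and at 6.02, 11.9, 14.8 and 12.2 CPM in sIVs libraries. Replicate 1 was the lowest library of each group, and the log2 difference was -0.24 ± 0.44 (SE).

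Of 9 tested inhibitors of interferon signalling, 0 passed, and 6 log2 differences were above 0 (median 0.09, and -0.04 without sIVs replicate 4). Irf2bp1, a corepressor that binds IRF2, had 0.32 ± 0.18 (SE), with 167 CPM in sIVs replicate 4 against at most 111 CPM elsewhere. The phosphatase genes Ptpn1 and Ptpn2 had -0.09 ± 0.10 and 0.09 ± 0.12 (SE). These were the 3 of smallest p. For 4 of the 9 inhibitors the replicates 1 were the lowest pair, against 12.4% of all genes tested. Named after their values were seen, these were Usp18 (0.529 to 31.4 CPM), Socs1 (0.529 to 4.06 CPM), Socs3 (4.69 to 24.5 CPM) and Ptpn6 (1.13 to 4.69 CPM). Of 13 other tested targets of interferon gamma, 0 passed, but 12 were lowest in PBS replicate 1, and for 13 of 13 the replicates 1 were the lowest pair. Their median log2 difference was 0.30 over all libraries, 0.25 without replicate 1 of both groups and -0.11 without sIVs replicate 4. The chemokine gene Cxcl10 had -1.18 ± 0.92, the immunoproteasome gene Psmb10 0.53 ± 0.47 and the class II histocompatibility gene H2-Ab1 0.53 ± 0.48 (SE).

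Partners of these GTPases had a median SD of log2 CPM within groups of 0.22 (autophagy and ubiquitin factors) and 0.39 (inflammasome genes), against 1.21 for the members. The largest SDs of tested genes, named after their values were seen, were those of Ube2l6 and Casp1. Ube2l6, a conjugating enzyme of the ISG15 pathway, had 1.47 (1.89 to 36.9 CPM), and the caspase gene Casp1 1.34 (0.151 to 2.23 CPM). Trim21, Rnf213 and Gsdmd followed with SDs of 0.80, 0.71 and 0.67. The 2 replicates 1 were the lowest pair for 5 of 15 autophagy and ubiquitin genes and 2 of 5 inflammasome genes, against 12.4% of all genes tested. Of 15 tested autophagy and ubiquitin factors that guide the GTPases to vacuoles, 0 passed, with a median log2 difference of 0.15 (-0.01 without sIVs replicate 4). Rnf213, a giant ubiquitin ligase that coats intracellular pathogens, stood at 29.0, 124, 71.6 and 100 CPM in PBS and at 32.9, 56.8, 41.3 and 59.1 CPM in sIVs libraries (log2 difference -0.77 ± 0.39 SE; edgeR adjusted p = 0.81). Atg12 and Map1lc3a, genes of autophagosome formation, had 0.19 ± 0.12 and 0.41 ± 0.28 (SE). Of 5 tested inflammasome genes, 0 passed (median 0.14, and -0.04 without sIVs replicate 4), and Aim2, Gsdmd and Il18 stood at 0.983 to 7.33 CPM over all libraries, with log2 differences of 0.31 ± 0.27, 0.27 ± 0.44 and 0.14 ± 0.27 (SE). Of 6 genes for enzymes that attach a prenyl anchor to proteins such as Gbp2 and Gbp5 or process the protein end that carries it, 0 passed (median 0.10). Rce1, Fntb and Fnta had 0.39 ± 0.19, 0.22 ± 0.11 and 0.23 ± 0.12 (SE), and Rce1 and Fnta did not overlap between the groups, as was the case for 2.01% of all genes tested.

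Markers of cell types moved with the members in part. In bulk tissue, fewer cells of a type and less RNA per cell cannot be told apart. The members summed to 20.0, 199, 129 and 172 CPM in PBS replicates 1, 3, 4 and 5, and to 36.2, 80.6, 147 and 155 CPM in sIVs replicates 1, 3, 4 and 5. The 14 markers of microglia, the resident macrophages of retina, summed to 63.6, 223, 203 and 287 CPM in PBS and to 175, 209, 395 and 359 CPM in sIVs libraries. PBS replicate 1 was low in both sums, whereas sIVs replicate 1 was near PBS replicate 4 for microglia and far below it for the members. All 14 microglia markers had a log2 difference above 0 (median 0.55, 0 passed), where those of the members were below 0. PBS replicate 1 was the lowest library for 13 of the 14 markers, so their signs are not separate observations either. The microglia median was 0.39 without replicate 1 of both groups, with 12 of 14 above 0, and 0.27 without sIVs replicate 4, with 13 of 14 above 0.

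Endothelial markers (12 genes) summed to 461 to 783 CPM in PBS and 507 to 662 CPM in sIVs libraries, and Müller glia and astrocyte markers (12 genes) to 5080 to 7490 and 5640 to 8990 CPM. Both sums were lowest in PBS replicate 1, and 6 of 12 markers of each list were lowest there. Leukocyte markers (16 genes) summed to 0.605 to 3.88 CPM in PBS and to 0.502 to 6.33 CPM in sIVs libraries. Of these, Cd3e, Gzma, Ncr1, Klrb1c and Ly6g had 0 counts in all 8 libraries, and only Ccr2, a monocyte receptor gene, passed the filter on low counts. Ccr2 stood at 0, 1.97, 0.47 and 3.43 CPM in PBS and at 0.0717, 1.28, 0.851 and 3.99 CPM in sIVs libraries, with replicate 1 lowest in each group as for the members. Of the T cell markers, Cd4 stood at 0.0602 to 0.752 CPM and Cd8a at 0 to 0.55 CPM. Cd4 was highest in PBS replicate 3 and Cd8a in sIVs replicate 5. In PBS replicate 1, where the members were lowest, Cd4 stood at 0.378 CPM and Cd8a at 0.227 CPM. These values rest on at most 13 counts (Cd4) and 8 counts (Cd8a) in a library, and Cd3d, Cd3g and Trac had at most 3. The part of leukocytes, microglia, endothelium and glia in the differences between libraries was not tested.

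**Figure D5:**
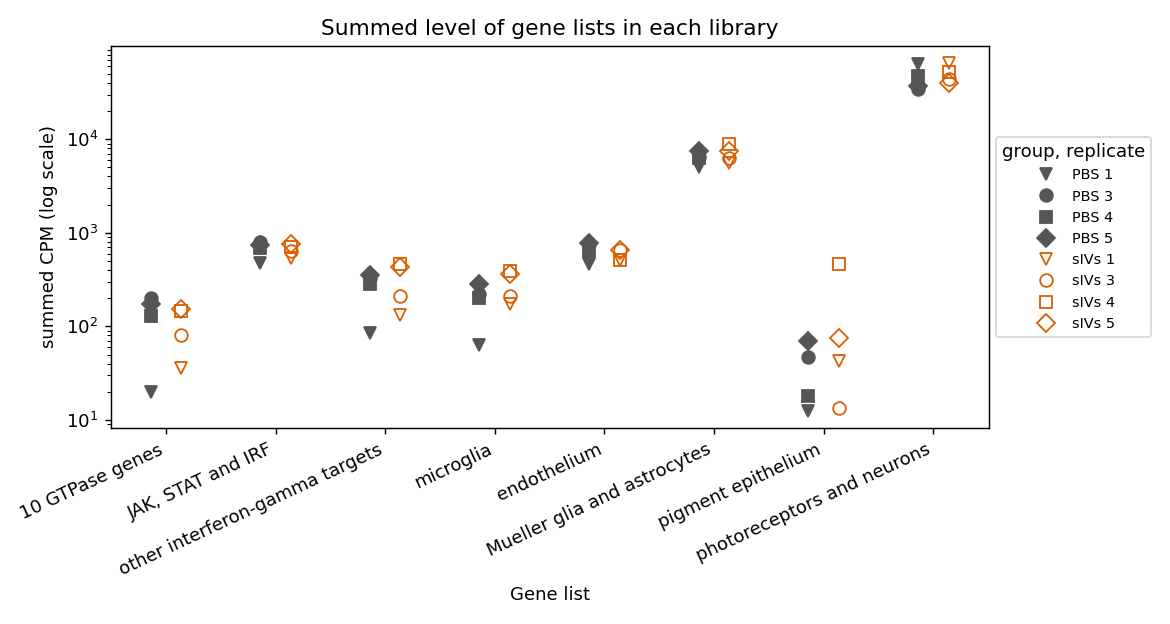
Summed CPM (log axis) of the 10 members and of 7 other gene lists in each library, PBS filled and sIVs open, with a marker shape for each replicate number. The members span 20.0 to 199 CPM, and photoreceptor and neuron markers are highest in replicate 1 of both groups, where the members are lowest.

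The genes with the pattern most like that of the members were sought among 13773 protein-coding genes by the root mean square distance, over the 8 libraries, from the mean profile of the members. The closest were Ddx58 (distance 0.08 log2 CPM), which encodes the RNA sensor RIG-I, Ifih1 (0.09), which encodes the RNA sensor MDA5, and Herc6 (0.14), a ligase gene of the ISG15 pathway. Ddx58 stood at 5.59, 50.2, 32.4 and 41.9 CPM in PBS and at 9.17, 21.0, 35.4 and 34.0 CPM in sIVs libraries. Ddx58 was picked for its nearness to the mean profile over these libraries. Its low replicates 1 and intermediate sIVs replicate 3 follow from that choice. Next came Parp14 (0.16), Trim34b (0.17), Parp9 (0.17), Tap1 (0.17), which encodes a peptide transporter for antigen presentation, and Samd9l (0.19). Crym (0.19), which encodes a thyroid hormone-binding protein, and Dab2 (0.21), an endocytic adaptor gene, closed the list of 10. The median distance over all genes compared was 1.04, and 2.28% of them lay within 0.60, the distance of the farthest member. None of the 10 differed between the groups (edgeR adjusted p at least 0.81).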

How the data were processed

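The authors deposited raw counts per gene and FPKM values for 8 retina libraries made by poly(A) selection with a protocol that marks strand, per the labels. The submitters' processing notes name mm10 as the build. Which aligner, counter and strand setting were used is not given in the sources used here. The deposited FPKM values equalled counts over listed length and library total, times a constant between 0.943 and 1.03 per library. Genes were filtered with filterByExpr, scaled with TMM factors and tested with edgeR 4.0.16 (R 4.3.3), group as the only term, Benjamini-Hochberg adjustment over all genes. Standard errors are the absolute log2 difference over the square root of F. DESeq2 1.42.0 and limma 3.58.1, other scalings and filters, a replicate block and left-out libraries were alternatives. Libraries and groups came from the labels. Members and gene lists were chosen with earlier results of these data known. The named-gene rule took all members, tested members of the family list, the 3 genes of smallest p of each pathway list and the 10 genes of nearest profile. Log2 CPM used a prior count of 2. The 75-base stretches came from GENCODE M21 transcripts, and promoters from RefSeq.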

Additional observations from a re-analysis of the deposited data

Results flagged for a closer look

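Gbp3 stood at 2.04 CPM in PBS replicate 1, against 31.6 to 34.6 CPM in the other PBS libraries, a gap of 0.909 of the range of the group. Gbp5 stood at 1.79 CPM in sIVs replicate 1, against 4.85 to 5.43 CPM in the other sIVs libraries, a gap of 0.839 of the range. Both exceed Dixon's 95% limit for 4 samples. These were 2 of 38 groups checked (10 members and 9 related genes in 2 groups), and chance flags about 1 in 20 separate checks. Most of these genes share their low libraries, so the checks are not separate and the count cannot be read against that rate.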

How the results depend on the processing

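No gene and no member passed in any of the 20 alternatives. The log2 difference turned above 0 for Gbp2 and Igtp on log2(FPKM + 1) (0.05 and 0.02), on log2(FPKM + 0.1) (0.18 and 0.06) and with the replicate block (0.10 and 0.05). Leaving out each library in turn, the median of the members ranged from -0.75 to -0.14, and to -0.86 without PBS replicate 1 and sIVs replicate 4 together. Over these settings the differences ranged from -0.70 to 0.14 for Gbp2, -0.87 to 0.20 for Gbp3, -0.68 to 0 for Gbp6, -0.88 to 0.25 for Irgm1 and -0.77 to 0.35 for Igtp; those of Gbp4, Gbp5, Gbp7, Gbp9 and Iigp1 stayed below 0. The cause was not tested. The median SD of the members within groups moved from 1.21 to 0.45 without replicate 1 of both groups and was 1.27 without sIVs replicate 4, settings chosen for it after seeing the data, as they were for the gene lists and the order per length. Same-numbered libraries deviated together with correlations of 0.60, 0.02, 0.23 and 0.51 for replicates 1, 3, 4 and 5. Replicate 3 thus missed the rule of 0.1 in each pair. PBS replicates 1, 4 and 5 correlated best with the same-numbered sIVs library, and PBS replicate 3 with sIVs replicate 5. Whether same-numbered libraries share a source was not tested. With the replicate block in edgeR the median of the members was -0.26 and 0 genes passed, with 588 at an unadjusted p under 0.05. Low counts limit Gbp6 and Iigp1, at no more than 3.41 and 5.03 CPM.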
